A study of Mus musculus with 6 samples.

Results

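The genes of glucose uptake, glycolysis, lactate handling and pyruvate entry into mitochondria were examined in sorted cells of the mouse Isl1 lineage. The members were chosen by name, 33 genes in all. A gene was measured where at least 1 probe set of the array, control probe sets left aside, is annotated to that gene alone. This held for 29 members, read by 61 probe sets, among 18193 genes measured in the same way. Gpi1, Pfkfb1 and Eno1 were not analysed here, and Gapdh was read only by control probe sets or by probe sets shared with its pseudogenes, so its values are given apart. Where a gene had several probe sets, the one with the highest mean over the 6 arrays stood for it.

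Both groups were YFP+ cells, sorted by flow cytometry from embryos at embryonic day 9.0 and described as cardiac progenitors of the precardiac mesoderm. The mutant group came from embryos with Isl1-cre, Rosa-YFP and a β-catenin allele with loxP sites around exon 3, which Cre turns into a stabilised form of the protein. The other group is labelled wild type, and its alleles are given no further than that it lacked stabilised β-catenin. There were 3 arrays of each group. Cre acts wherever Isl1 was once active, so YFP marks a lineage and not a single cell type, and the number of embryos behind each sample is not stated. The p-values therefore measure the spread between these samples. In bulk RNA, more cells of a type and more RNA per cell cannot be told apart.

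Glycolysis splits glucose into pyruvate in the cytosol. Glucose enters through SLC2A carriers, is trapped by hexokinase, and is committed to the pathway by phosphofructokinase, whose activator fructose 2,6-bisphosphate is made and broken down by the PFKFB enzymes. Pyruvate is either reduced to lactate and exported by SLC16A carriers, or enters mitochondria, where pyruvate dehydrogenase kinases switch off the pyruvate dehydrogenase complex. Many steps have several isoenzymes from separate genes, some of them named for muscle, liver, platelets or brain, and many of these genes are known targets of the oxygen-sensitive factor HIF1. Early embryonic cells and the young heart rely heavily on glycolysis.

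Of the 29 members, 25 had a higher mean in mutant cells and 4 a lower mean, where 44.7% of all genes had a higher and 55.3% a lower mean. All values are log2, and differences are mutant minus wild type. Pfkp, the platelet-type phosphofructokinase, was the single member that rose with adjustment over all genes in limma (adjusted p = 0.0371), a threshold passed upwards by 0.066% of all genes. Without adjustment, 17 members were higher and 0 lower at p under 0.05, against 6.76% and 4.84% of all genes. The 3 mutant values all lay above the 3 wild-type values in 18 members and below them in 0, against 8.64% and 9.18% of all genes. The median difference of the members was 0.47, that of all genes −0.03. None of the members lay at or below the rough background of 4.85 in both groups.

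The members at an unadjusted p under 0.05 were spread over 11 of the 14 steps measured. The steps without one were phosphoglycerate mutase, lactate dehydrogenase and the pyruvate dehydrogenase subunits. Mutant array 1 was the lowest of the mutant arrays in 23 of the 29 members and in all 17 of those higher at an unadjusted p under 0.05. Relative to each gene's wild-type mean, the median member stood at 0.29, 0.53 and 0.59 on mutant arrays 1, 2 and 3, and from −0.06 to 0.09 in wild type.

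**Figure D1:**
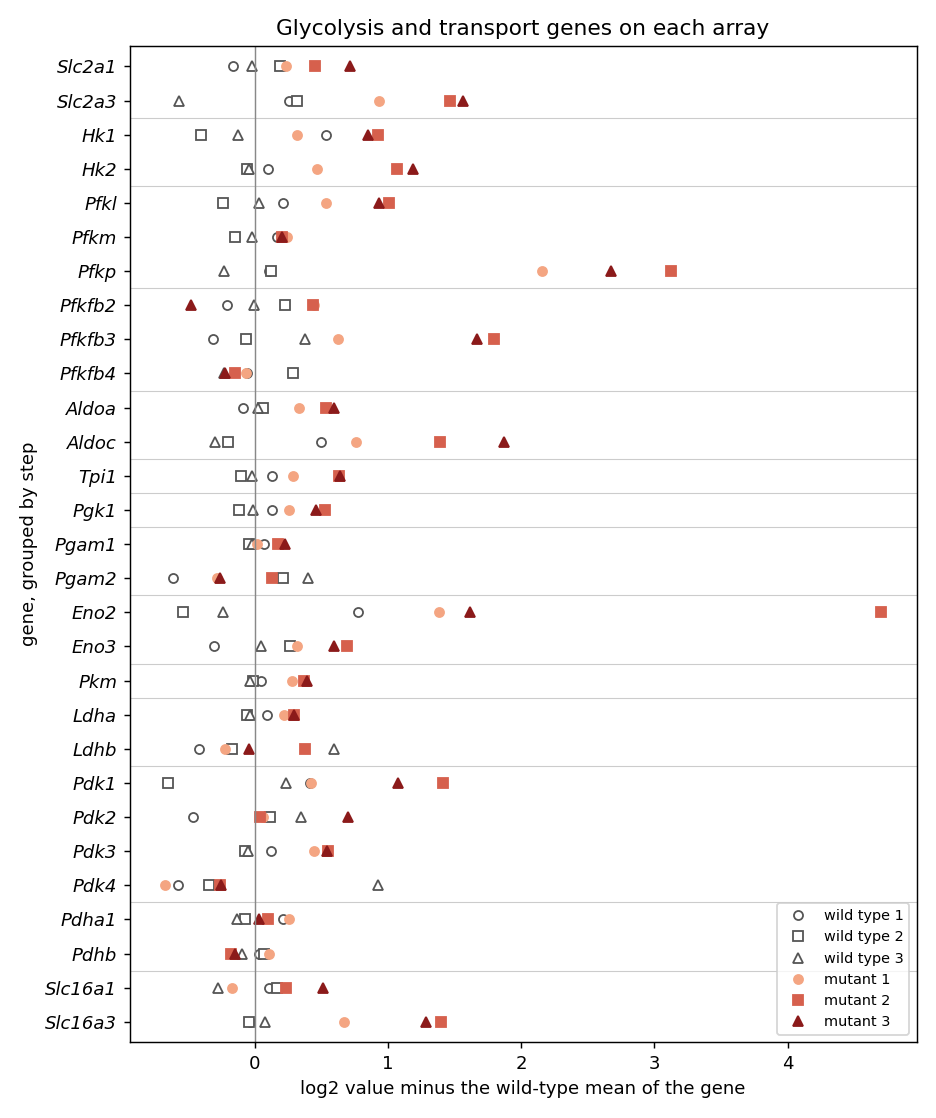
Log2 value of each of the 29 members on each array, minus the gene's wild-type mean (x axis), with genes grouped by step (y axis). Open symbols are the 3 wild-type arrays and filled symbols the 3 mutant arrays. Pfkp lies farthest right with all 3 mutant arrays, Eno2 with 1 array, and mutant array 1 is the lowest mutant array in 23 members.

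Both glucose carriers had higher values in mutant cells. Slc2a3 (GLUT3), a high-affinity carrier, read 12.04, 12.10 and 11.22 in wild-type replicates 1, 2 and 3, and 12.72, 13.25 and 13.35 in the mutant ones, with wild-type array 3 apart from the other two and no overlap between groups. The difference was 1.32 (SE 0.28), which is 2.50-fold (adjusted p = 0.189). Slc2a1 (GLUT1), the widespread basal carrier, read 12.64, 12.99 and 12.78 against 13.04, 13.25 and 13.52. Its groups did not overlap, but the gap was narrow, and the difference was 0.47 (SE 0.17, adjusted p = 0.365). All 4 Slc2a3 probe sets (1.25 to 1.81) and all 3 of Slc2a1 (0.37 to 0.47) pointed the same way. The within-array difference between Slc2a3 and Slc2a1 was larger on every mutant array than on every wild-type array, by 0.85 on average.

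Such comparisons between isoforms used only how the difference between 2 genes of a step changed from wild type to mutant, since levels of separate probe sets are not on a common scale. There were 20 pairs. An exact permutation test of 3 against 3 arrays cannot give a two-sided p below 0.1, and after adjustment over the 20 pairs the smallest p was 0.25, so none could pass. In 8 pairs the 2 groups did not overlap. Each pair was ordered so that its mean change was positive, and pairs of a step can share a gene, so the pairs are not independent. The count was not set against that of other gene pairs.

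Hexokinase traps glucose inside the cell as glucose 6-phosphate. Hk2, the inducible form, read 10.32, 10.16 and 10.18 in wild type and 10.69, 11.29 and 11.41 in mutant cells. The wild-type arrays were tightly grouped (SD 0.09) and the difference was 0.91 (SE 0.20, 1.88-fold, adjusted p = 0.214). Hk1, the constitutive form, read 7.46, 6.52 and 6.80 against 7.25, 7.85 and 7.78, so that mutant array 1 fell below wild-type array 1. Its difference of 0.70 (SE 0.27, adjusted p = 0.394) was not shared by its dimmer probe set, at 0.03. The difference between Hk2 and Hk1 changed by 0.21, with groups that overlapped (exact permutation p = 0.5).

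Phosphofructokinase showed the widest split between isoforms. Pfkp read 7.91, 7.93 and 7.57 in wild type and 9.95, 10.92 and 10.48 in mutant cells. The lowest mutant value stood far above the highest wild-type value. Means were 7.80 ± 0.20 and 10.45 ± 0.49 (SD, n = 3), a rise of 2.65 (SE 0.25) or 6.28-fold, with 3 probe sets between 2.52 and 2.69. By size of difference Pfkp ranked 9 among the 18193 genes. The adjusted p was 0.113, 0.134 and 0.144 without wild-type replicate 1, 2 or 3, and 0.152 and 0.179 without mutant replicate 2 or 3. The call thus ended when any of these arrays was left out. A fit with 1 array fewer has less power, so this does not by itself single out an array. The call also ended with the mean of probe sets (0.0651), the most variable probe set (0.136) and the covariate for Y-linked genes described with the sex-linked transcripts (0.205). In all it held under 6 of 15 alternatives, over which the difference stayed between 2.41 and 2.90.

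Pfkl, the liver-type subunit, read 10.56, 10.11 and 10.38 against 10.89, 11.36 and 11.28, a difference of 0.82 (SE 0.18, 1.77-fold, adjusted p = 0.205) without overlap. Pfkm, the muscle-type subunit, read 8.49, 8.17 and 8.30 against 8.56, 8.52 and 8.52. Its mutant values were close together and just above the highest wild-type value, with a difference of 0.22 (SE 0.13, adjusted p = 0.544). Within arrays, Pfkp gained 1.83 on Pfkl and 2.43 on Pfkm, and Pfkl gained 0.61 on Pfkm. All 3 pairs had groups that did not overlap (each exact permutation p = 0.1, adjusted p = 0.25).

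The PFKFB enzymes set the level of the activator of phosphofructokinase. Pfkfb3, the form with the highest ratio of kinase to phosphatase activity, read 7.87, 8.11 and 8.56 in wild type and 8.80, 9.97 and 9.85 in mutant cells. Mutant array 1 lay close above wild-type array 3, and the difference was 1.36 (SE 0.33, 2.57-fold, adjusted p = 0.230), with the other probe set at 1.19. Pfkfb4 read 6.43, 6.77 and 6.25 against 6.42, 6.33 and 6.26, with a difference of −0.15 and full overlap. Pfkfb2, the heart form, read 6.33, 6.77 and 6.54 against 6.99, 6.98 and 6.07, and its 4 probe sets ran from −0.33 to 0.13. Pfkfb3 gained 1.51 on Pfkfb4 without overlap, and 1.23 on Pfkfb2 with overlap (exact permutation p = 0.1 and 0.2, adjusted p = 0.25 and 0.364).

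**Figure D2:**
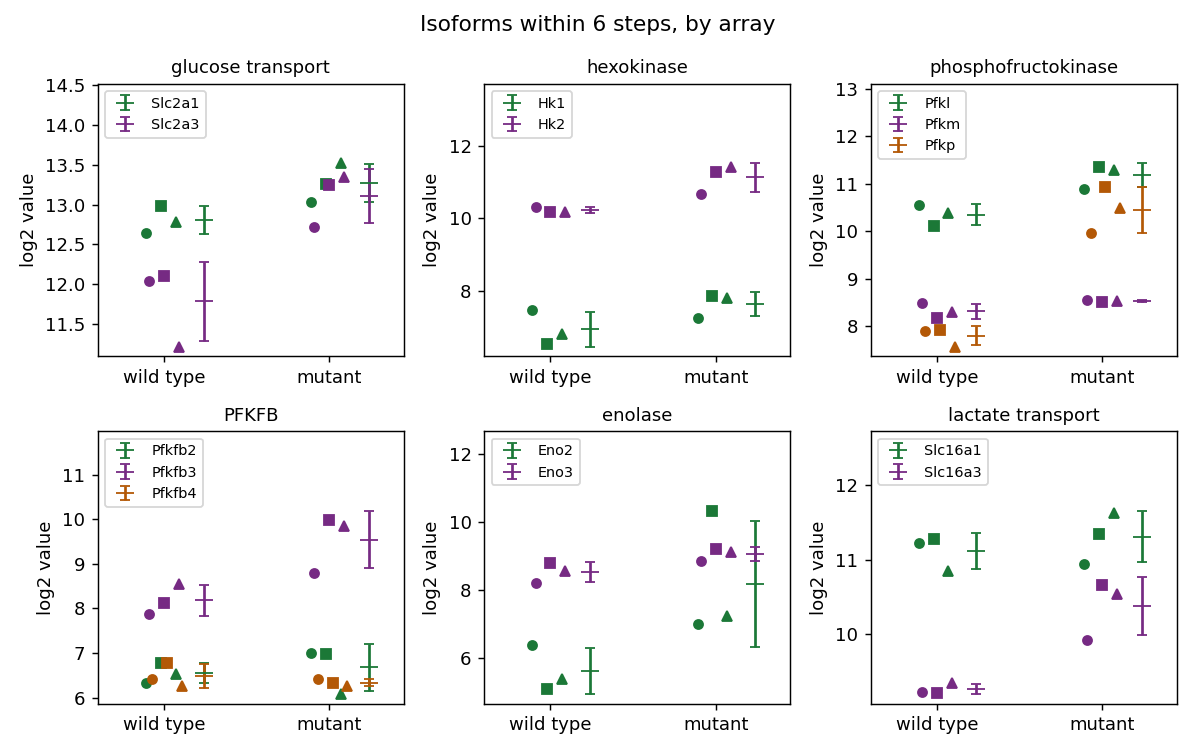
Log2 values (y axis) of the isoforms of 6 steps in wild-type and mutant cells (x axis). Symbols are arrays (circle 1, square 2, triangle 3), and bars show the mean and SD of 3 arrays; heights of separate genes are not on a common scale. Pfkp moved from 7.80 to 10.45 while Pfkm moved from 8.32 to 8.54, and the high Eno2 value is mutant array 2.

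The first 250 bases before the RefSeq transcription start are shown for 4 members, those with the smallest p among non-overlapping members that have a single start in the table: Pfkp, Slc16a3, Pfkl and Hk2. The letters searched were ACGTG and GCGTG on both strands (CACGT and CACGC on the other), the core that HIF factors are known to bind. ACGTG overlaps the E-box CACGTG of other factors. Sequences run 5′ to 3′ on the gene's strand, from RefSeq on build GRCm38.p6, with matches in capitals. Pfkp lies on the minus strand at chr13:6648772-6649021, Slc16a3 on the plus strand at chr11:120948817-120949066, Pfkl on the minus strand at chr10:78009808-78010057 and Hk2 on the minus strand at chr6:82774455-82774704.
Pfkp: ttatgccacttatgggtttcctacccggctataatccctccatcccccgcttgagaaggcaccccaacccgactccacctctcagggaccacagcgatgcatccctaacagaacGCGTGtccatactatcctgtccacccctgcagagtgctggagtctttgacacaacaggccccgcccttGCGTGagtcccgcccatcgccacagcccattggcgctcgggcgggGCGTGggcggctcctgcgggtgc
Slc16a3: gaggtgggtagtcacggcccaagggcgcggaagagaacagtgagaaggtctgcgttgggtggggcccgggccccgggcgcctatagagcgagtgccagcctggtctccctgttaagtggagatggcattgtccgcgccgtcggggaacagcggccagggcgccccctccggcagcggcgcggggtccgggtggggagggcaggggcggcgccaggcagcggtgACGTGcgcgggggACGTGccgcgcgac
Pfkl: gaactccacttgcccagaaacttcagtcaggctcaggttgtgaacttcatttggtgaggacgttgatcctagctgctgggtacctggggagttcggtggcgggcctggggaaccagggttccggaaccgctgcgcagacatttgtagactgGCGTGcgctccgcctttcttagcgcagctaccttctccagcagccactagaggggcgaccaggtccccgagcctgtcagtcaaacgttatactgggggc
Hk2: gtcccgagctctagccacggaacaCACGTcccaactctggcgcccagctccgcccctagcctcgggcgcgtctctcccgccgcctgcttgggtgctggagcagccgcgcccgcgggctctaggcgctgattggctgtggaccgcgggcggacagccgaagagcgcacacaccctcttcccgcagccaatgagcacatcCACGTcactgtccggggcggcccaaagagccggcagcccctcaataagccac

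Pfkp held 3 matches, all GCGTG, starting 136, 68 and 23 bases before the start, and Pfkl held 1, starting 99 bases before it. Slc16a3 held 2 ACGTG matches, 27 and 14 bases before the start, and Hk2 held 2 of CACGT, 226 and 52 bases before it. RefSeq promoters were matched for 28 of the 29 members, all but Slc2a3, with 42 windows in all, each the 250 bases before a start. Windows on chr18 were left out for the members but not for the comparison sets. At least 1 of the 2 motifs stood in 78.6% of these windows, against 48.9% of the 18109 windows of tested genes and 38.6% of all 32851 such windows in the table. The share was 73.9% of the 23 windows of members higher at an unadjusted p under 0.05, and 84.2% of the 19 windows of the other members; these shares were not tested. ACGTG, with or without the other motif, stood in 45.2% of the member windows and 19.5% of those of tested genes, and GCGTG in 52.4% and 38.0%. Eno2, Tpi1 and Pgam2, with 1 window each, held neither motif. Windows of one gene can overlap, and a match describes letters only.

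Aldolase splits the doubly phosphorylated sugar into triose phosphates. Aldoa, the main aldolase, read 12.73, 12.88 and 12.85 in wild type and 13.15, 13.35 and 13.41 in mutant cells, a difference of 0.49 (SE 0.13, 1.40-fold, adjusted p = 0.243), and its 5 probe sets agreed between 0.43 and 0.57. All 5 carry the array maker's suffix for probes that may also match other transcripts. Aldoc, the brain-type aldolase, read 6.48, 5.78 and 5.69 against 6.75, 7.38 and 7.85. Its difference was 1.34 (SE 0.32, 2.53-fold, adjusted p = 0.228), with a dimmer probe set at 0.50. The gain of Aldoc on Aldoa was 0.85, with overlap (exact permutation p = 0.2, adjusted p = 0.364).

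Tpi1, which interconverts the triose phosphates, read 12.40, 12.18 and 12.25 in wild type and 12.56, 12.91 and 12.92 in mutant cells. Its difference was 0.52 (SE 0.15, adjusted p = 0.276), and mutant array 1 stood nearer to wild type than to the other mutant arrays. Pgk1, an X-linked gene whose enzyme makes the first ATP of the pathway, read 13.18, 12.93 and 13.04 against 13.31, 13.58 and 13.51, a difference of 0.41 (SE 0.13, adjusted p = 0.335). The mutase Pgam1 read 12.94, 12.83 and 12.86 against 12.89, 13.05 and 13.10, with overlap and a difference of 0.14 (SE 0.12, adjusted p = 0.668). Pgam2, the muscle mutase, read 6.61, 7.44 and 7.63 against 6.94, 7.36 and 6.97, with the mutant values inside the wild-type range. The mutase pair thus had neither member with separated groups.

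Enolase makes phosphoenolpyruvate. Eno2, the neuronal form, read 6.39, 5.08 and 5.38 in wild type and 7.00, 10.32 and 7.24 in mutant cells. All mutant values were above the wild-type values, but mutant array 2 stood far above the rest. The difference of 2.57 (SE 0.84, adjusted p = 0.337) became 1.50 without mutant replicate 2. In the same arrays 10 of 10 genes of the neuronal marker list were measured and none was dim in both groups. Their mean level was 7.84 to 8.91 on wild-type and 6.75 to 8.08 on mutant arrays. At an unadjusted p under 0.05 in limma, 3 were lower and 0 higher, against 4.84% and 6.76% of all genes. Eno3, the muscle form, read 8.21, 8.78 and 8.57 against 8.84, 9.22 and 9.12, a difference of 0.54 (SE 0.18, adjusted p = 0.354) with a narrow gap between groups. The gain of Eno2 on Eno3 was 2.03, with groups that overlapped (exact permutation p = 0.3).

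Pkm, the pyruvate kinase of most tissues, read 12.45, 12.39 and 12.36 in wild type and 12.68, 12.77 and 12.79 in mutant cells. The difference was small but the arrays of a group lay close together: 0.35 (SE 0.11, 1.27-fold, adjusted p = 0.335). Its splice forms were not told apart. Ldha, the subunit that favours lactate production, read 13.27, 13.12 and 13.14 against 13.40, 13.47 and 13.47, a difference of 0.27 (SE 0.12, 1.21-fold, adjusted p = 0.431). Ldhb, the heart-type subunit, read 10.03, 10.28 and 11.05 against 10.23, 10.83 and 10.41, with wild-type array 3 the highest of all and a difference of 0.04 (SE 0.28). All 4 Ldhb probe sets lay between 0.02 and 0.07, and the gain of Ldha on Ldhb was 0.23 with overlap.

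Of the lactate carriers, Slc16a3 (MCT4), the exporter of highly glycolytic cells, had the smallest p of the members after Pfkp. It read 9.22, 9.21 and 9.34 in wild type and 9.93, 10.66 and 10.54 in mutant cells, a difference of 1.12 (SE 0.20, 2.17-fold, adjusted p = 0.140). Slc16a1 (MCT1), the widespread carrier, read 11.22, 11.28 and 10.84 against 10.95, 11.35 and 11.63, with overlap and a difference of 0.19 (SE 0.21, adjusted p = 0.736). Slc16a3 gained 0.92 on Slc16a1, from 0.77 to 1.17 on single mutant arrays, without overlap (exact permutation p = 0.1, adjusted p = 0.25). Bsg (basigin), the chaperone that brings both carriers to the cell surface, stood at 0.91 (SE 0.18, adjusted p = 0.169).

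The pyruvate dehydrogenase kinases phosphorylate and switch off the enzyme complex that feeds pyruvate to the TCA cycle. Pdk1 read 9.87, 8.80 and 9.69 in wild type and 9.87, 10.86 and 10.52 in mutant cells. Mutant array 1 and wild-type array 1 were nearly equal, so the groups were separated by less than 0.01. The difference was 0.97 (SE 0.34, adjusted p = 0.362), with 4 probe sets from 0.97 to 1.71, and 0.64 without wild-type replicate 2. Pdk3, an X-linked kinase, read 9.004, 8.81 and 8.83 against 9.32, 9.43 and 9.42, tightly grouped on both sides, a difference of 0.51 (SE 0.12, 1.43-fold, adjusted p = 0.228). Pdk2 read 5.66, 6.24 and 6.47 against 6.18, 6.16 and 6.82. Pdk4, induced by fasting in muscle and heart, read 4.38, 4.60 and 5.87 against 4.28, 4.69 and 4.70, so that 5 of its 6 values were below the background of 4.85. The gains of Pdk1 and Pdk3 on Pdk4, 1.36 and 0.91, did not overlap, but they rest on a gene near background.

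The subunits of pyruvate dehydrogenase itself had overlapping groups. Pdha1 read 10.25, 9.96 and 9.90 against 10.29, 10.14 and 10.06, a difference of 0.13 (SE 0.14). Pdhb read 10.76, 10.80 and 10.64 against 10.84, 10.55 and 10.58, a difference of −0.07 (SE 0.13), while its dimmer probe set stood at −0.51. The kinases Pdk1 and Pdk3 therefore had separated groups where the subunits of their target did not. The differences between those differences were not tested.

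**Figure D3:**
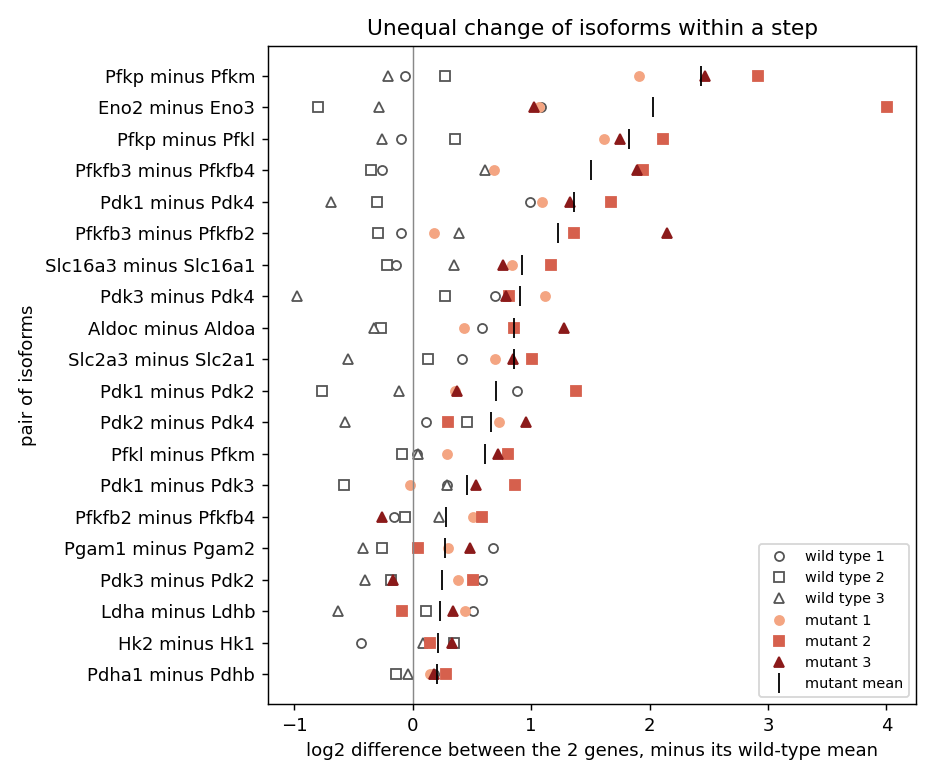
Within-array log2 difference between 2 isoforms of a step, minus its wild-type mean (x axis), for the 20 pairs (y axis). Open symbols are wild-type arrays, filled symbols mutant arrays and black ticks the mutant mean. Pfkp gained 2.43 on Pfkm and 1.83 on Pfkl with no overlap, while the gain of Eno2 on Eno3 rests on mutant array 2.

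Around these members, other families of carriers and isoenzymes had medians near that of all genes. Of 10 other sugar carriers and hexokinases measured, 1 passed an unadjusted p of 0.05, Hk3 at −0.36, and the median was 0.04. Of 10 other glycolytic isoenzymes and regulators, 0 were higher and 2 lower: Tigar, a fructose bisphosphatase that slows glycolysis, at −0.75, and Bpgm, the bisphosphoglycerate mutase abundant in red cells, at −0.54, both with overlapping groups. Without mutant replicate 3 Tigar stood at −0.44 (unadjusted p = 0.130 in limma), as it did with the mean of probe sets, and without wild-type replicate 1 Bpgm stood at −0.31 (unadjusted p = 0.125 in limma). Of 7 other monocarboxylate and pyruvate transport genes, Bsg and Slc16a6 (0.37) were higher and 0 lower. In the rest of the pyruvate dehydrogenase complex and its phosphatases, 5 of 7 had lower means, against 55.3% of all genes. The median was −0.20. In 3 of the 7 the groups did not overlap, all lower in mutant cells, against 9.18% of all genes. Among them Dld, the shared dehydrogenase subunit, stood at −0.43 (adjusted p = 0.378) and at −0.090 with the mean of probe sets. None of the genes in these lists passed over all genes.

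The pentose phosphate pathway, which branches off after hexokinase, had 0 of 7 genes at an unadjusted p under 0.05, with Rpia at −0.46 having the smallest p. Of 7 genes of gluconeogenesis 1 was higher: Pck2, the mitochondrial phosphoenolpyruvate carboxykinase, at 1.08 (SE 0.19, adjusted p = 0.140). Of 19 TCA cycle genes, 15 had lower means, against 55.3% of all genes, with a median of −0.08. At an unadjusted p under 0.05 in limma, 1 was higher and 1 lower. Idh1, a cytosolic isocitrate dehydrogenase, stood at −0.73 (SE 0.19, adjusted p = 0.250) and the mitochondrial Idh2 at 0.28 (adjusted p = 0.409), which was 0.048 with the mean of probe sets and −0.19 with the most variable one.

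Genes known to respond to low oxygen outside glycolysis stood higher on the same arrays. All 16 measured had higher means, 15 at an unadjusted p under 0.05 and 12 with groups that did not overlap, with a median of 1.36. Among all genes these shares were 44.7%, 6.76% and 8.64%. Adm and Ndrg1 rose over all genes (adjusted p = 0.049 for both), by 1.84 and 3.46, and next in order of p Ddit4, a stress-induced inhibitor of mTORC1, stood at 2.05 and P4ha2, a collagen prolyl hydroxylase subunit, at 1.97 (adjusted p = 0.120 and 0.131, limma). The calls of Adm and Ndrg1 held under 5 and 6 of 15 alternatives, with adjusted p from 0.016 to 0.200 and from 0.022 to 0.193. Leaving out any wild-type array, or mutant array 2 or 3, ended the call of Adm, which then ran from 1.70 to 1.93. Leaving out wild-type array 1 or 2, or mutant array 2 or 3, ended that of Ndrg1, which then ran from 3.11 to 3.37, and the mean of its probe sets gave 2.16 (adjusted p = 0.051). The list was assembled with its behaviour in these samples known, so it is no independent evidence of a direction. Its part in the members' values was not tested.

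**Figure D4:**
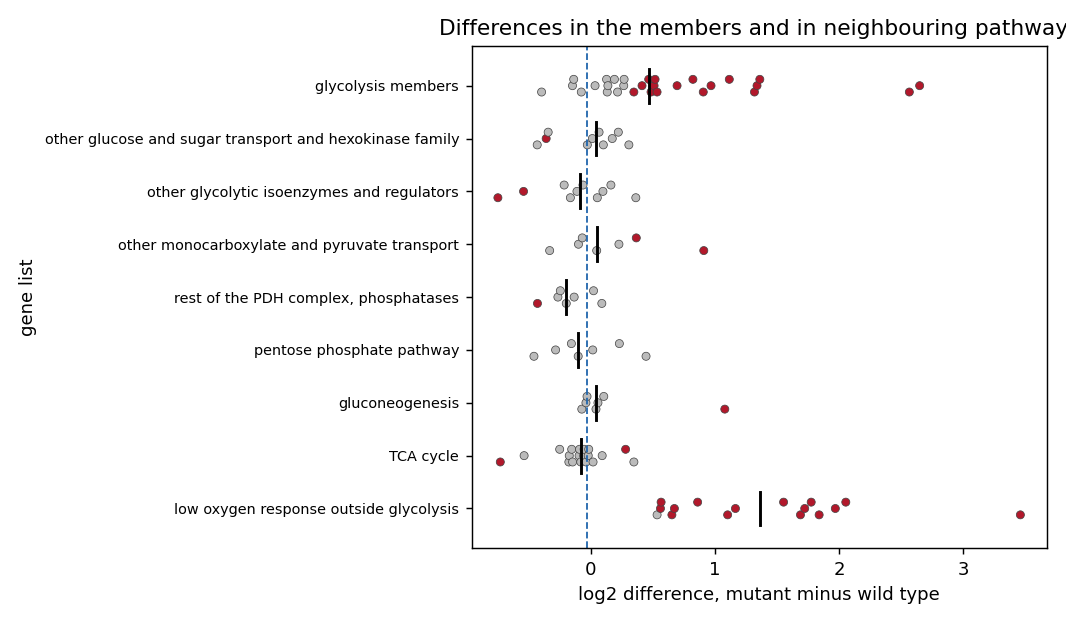
Log2 difference, mutant minus wild type (x axis), of each gene in the members and 8 neighbouring lists (y axis). Red points have an unadjusted limma p under 0.05, black bars are list medians and the dashed line is the median of all genes, −0.03. The members' median is 0.47, and those of the sugar carrier, isoenzyme, pentose phosphate and TCA lists lie between −0.10 and 0.04. That of the rest of the pyruvate dehydrogenase complex and its phosphatases is −0.20, and the low oxygen list's is 1.36.

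Some other measures moved with the members. Endothelial markers (10 of 10 measured, none dim in both groups) had a mean level of 7.18 to 7.97 on wild-type and 8.24 to 8.69 on mutant arrays, with 7 higher at an unadjusted p under 0.05. Surface ectoderm markers (10 of 10 measured, none dim in both groups) ran from 8.03 to 8.64 and from 8.77 to 9.74, with 4 higher. Cardiomyocyte markers overlapped, at 8.91 to 9.58 and 8.87 to 9.10, and all 10 were above background. At an unadjusted p under 0.05 in limma 1 of them was higher, Nppa at 1.16, and 1 lower, Tnnt2 at −0.76, both with groups that did not overlap. Primitive erythroid markers (9 of 10 measured) ran from 10.33 to 10.95 in wild type and from 9.68 to 10.97 in mutant cells, with 0 at an unadjusted p under 0.05. Visceral endoderm markers (9 of 10 measured) ran from 5.92 to 8.05 and from 5.56 to 7.10, with 1 higher and 2 lower. Skeletal or smooth muscle markers (10 of 10 measured) ran from 6.56 to 7.25 and from 6.78 to 7.15, with 1 higher and 1 lower. Macrophage markers (10 of 10 measured, 4 dim in both groups) ran from 5.24 to 5.59 and from 4.93 to 5.39, with 0 higher and 3 lower. Isl1 itself read 9.24, 9.36 and 9.77 against 8.72, 8.61 and 7.49 (adjusted p = 0.269). Ctnnb1 differed by −0.0023; whether its probe set covers the deleted exon is not known here, so it does not check the genotype. The part of these markers in the members' values was not tested. The 3′ minus 5′ difference of the Gapdh control probe sets, a measure of RNA and amplification quality, overlapped at 1.09 to 1.53 and 1.04 to 1.38.

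Sex-linked transcripts were uneven between arrays. The Y-linked Kdm5d read 9.84 on wild-type array 1, 2.82 and 3.52 on the other two, and 8.67 to 9.92 on the mutant arrays. The X-linked Xist, a transcript of female cells, read 5.46, 12.63 and 12.79 in wild type and 12.13, 7.54 and 12.44 in mutant cells. Mutant arrays 1 and 3 were thus high for both, and a Y-linked covariate does not sort the arrays into 2 sexes. With the mean of 3 Y-linked genes as a covariate, 12 members were higher at an unadjusted p under 0.05, Pdk2 (0.67) among them, and the difference was 2.49 for Pfkp (adjusted p = 0.205), 1.10 for Slc16a3 and 1.54 for Pfkfb3. It was 0.21 for Hk1, 1.64 for Eno2 and 0.55 for Pdk1.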

How the data were processed

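Total RNA of 3 wild-type and 3 mutant samples was measured on 1 array each. Per the labels' protocols, RNA was extracted with Trizol, amplified with the WT-Ovation Pico system and labelled with biotin. The deposited table holds 45101 probe sets with log2 values from 1.89 to 15.07. The scale was read from the values; how the authors corrected, summarised and normalized them is not given in the labels or the table used here. Array medians lay between 6.47 and 6.50 and the largest SD at a rank was 0.07, so the arrays appear aligned and were not rescaled. A shift of most genes one way would have been removed by such alignment, and low-input amplification adds noise.

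Names came from GEO's platform annotation, and symbols were brought up to date through RefSeq gene identifiers, which matched 34741 of 34945 single-gene probe sets. Probe sets with several genes (932), without a name here (9160) or serving as controls (64) stood for no gene. The background of 4.85 is the 95th percentile over 27 bacterial control probe sets of their mean. No dim gene was removed. The number of arrays limits the precision.

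The limma package (version 3.58.1, R version 4.3.3) compared the groups over 18193 genes (linear fit on group alone, eBayes, two-sided), with Benjamini-Hochberg adjustment over all of them and a threshold of 0.05; an adjusted p comes from this fit unless it is given as that of a pair or with an alternative, and SE are moderated. Isoform pairs were compared by exact permutation of the within-array difference. The fit was tested on simulated data with 200 changed genes of 18193. It recovered 75.2% of changes of 1 and 99.2% of changes of 2 on the log2 scale, with 10.6 false calls on average over 10 runs. The simulated noise was normal and independent between genes, with moderated SDs. Recovery in the measured arrays, where 12 genes were called, can therefore be lower. Members, lists and tests were chosen with earlier results of these data known. All members were named; the rule gave values on each array for members past an adjusted p of 0.05, or past an unadjusted p of 0.05 with groups that did not overlap, and for the other isoforms of their step; those of Pgam1, Pgam2, Ldha, Ldhb, Pdha1 and Pdhb were added after they were seen. The rule named of other lists the 4 genes with the smallest p under 0.05 at most, or the 1 with the smallest p. Alternatives were a replicate block, quantile normalization, median centring, dropping the dimmest 40% of genes, the mean of probe sets, the most variable probe set, a trended robust prior, array weights, each array left out and a Y-linked covariate, which was added with the sex-linked values known.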

Additional observations from a re-analysis of the deposited data

How the results depend on the processing

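Of the 29 members, 24 kept the sign of their difference under all alternatives tried for them, and 17 of 20 isoform pairs did so. The count of members higher at an unadjusted p under 0.05, 17, ran from 12 to 18 over the alternatives, and the median difference, 0.47, from 0.39 to 0.55. The count of members called over all genes, 1 (Pfkp), was 0 with the replicate block (Pfkp adjusted p = 0.0678), the mean of probe sets (0.0651), the most variable probe set (0.136) or the Y-linked covariate (0.205). It ran from 0 to 4 when 1 array was left out; the 4, without mutant replicate 1, were Pfkp, Slc16a3 (1.34), Hk2 (1.13) and Pfkfb3 (1.73). The 0 lower members at an unadjusted p under 0.05 became 1 with the most variable probe set, and ran from 0 to 1 when 1 array was left out. The cause was not tested.

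Signs turned for small differences. Pfkfb2 (0.13) stood at −0.035 with the mean of probe sets and −0.33 with the most variable one, Ldhb (0.04) at −0.019 with array weights, and, with the covariate, Pgam2 (−0.14) at 0.34, Pdk4 (−0.39) at 0.046 and Pdha1 (0.13) at −0.038. With 1 array left out, Pfkfb2 ran from −0.022 to 0.44, Ldhb from −0.17 to 0.33, Pgam2 from −0.44 to 0.065 and Pdk4 from −0.68 to 0.066. Among pairs, Pfkfb2 against Pfkfb4 turned to −0.19 with the most variable probe set, and with 1 array left out Hk2 against Hk1 ran from −0.0053 to 0.38 and Ldha against Ldhb from −0.081 to 0.49.

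Of the 14 genes named from neighbouring lists, 13 kept their sign; Idh2 (0.28) turned to −0.19 with the most variable probe set. Ddit4, P4ha2 and Bsg passed over all genes without mutant replicate 1. With the replicate block Adm and Ndrg1 missed the threshold (adjusted p = 0.054 and 0.053).

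The labels do not state that replicate numbers pair the samples. Deviations of same-numbered arrays from their group means correlated at 0.11, −0.08 and −0.02, those of differently numbered arrays at −0.12 to 0.15. With 3 arrays of each group these values cannot decide whether same-numbered arrays shared an origin.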

Other observations

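Gapdh, often used as a reference gene, entered no count. Its 3 control probe sets differed by 0.07, 0.19 and 0.06 between mutant and wild type at the 3′ end, the middle and the 5′ end. The 3′ one read 13.66, 13.70 and 13.68 in wild type and 13.71, 13.74 and 13.78 in mutant cells, without overlap. The bright probe set shared with Gapdh pseudogenes read 14.17 ± 0.01 and 14.24 ± 0.03 (SD, n = 3).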
